A study of Mus musculus with 6 samples.

Results

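Several ribosomal protein genes of the mouse have a second, intron-bearing copy elsewhere in the genome that encodes a similar protein. The 10 genes described here are 5 such paralogs and their 5 parents: Rpl3l with Rpl3, Rpl22l1 with Rpl22, Rps27l with Rps27, Rpl7l1 with Rpl7, and Rpl39l with Rpl39. They were taken by symbol from the 47729 genes of the count table, and all 10 were found. RNA-seq was made from bone marrow of mice labelled as mutant for the SNORD113-114 cluster (cluster KO, 3 libraries) and of wildtype mice (3 libraries). SNORD113 and SNORD114 are families of small nucleolar RNAs encoded in tandem in an imprinted region. The series design speaks of 3 mice of each genotype, but no label assigns a library to an animal, and p-values therefore measure the spread between libraries, which may be technical. The allele, strain, age and sex of the mice are not given in the sources, nor is a sort of the marrow cells. The libraries themselves differed in sex-linked RNA by genotype. Xist, made from the inactive X chromosome of females, was at 1.92, 0.0842 and 1.58 CPM (normalised read counts) in cluster KO and at 228, 249 and 248 CPM in wildtype libraries. The Y-linked gene Ddx3y was at 77.8, 87.2 and 100.3 CPM in cluster KO and 27.9, 18.2 and 21.4 CPM in wildtype libraries, and Eif2s3y, Kdm5d and Uty were also higher in cluster KO, with log2 fold changes of 2.56, 1.47 and 1.45. Each of the wildtype libraries thus held both Xist and Y-linked RNA, and the cluster KO libraries mainly the latter. A wildtype library therefore cannot be read as a single animal, and whether libraries are pools of animals was not tested. In every comparison below, genotype and sex makeup cannot be told apart.

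The cytosolic ribosome holds 1 copy of most ribosomal proteins, and a paralog that enters it takes the place of its parent. Parents are made in nearly every cell. Rpl3l is known from heart and skeletal muscle, Rpl39l from male germ cells, Rps27l as a p53 target, and Rpl22l1 as a gene that Rpl22 protein holds down by binding RNA. Rpl7l1 is more distant from its parent and is less well described. In marrow, Rpl22 is known for its role in lymphocyte development.

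The coding sequences show how far the members of each pair can be told apart by reads, so they are given first, from the principal transcript of each gene in GENCODE M21 (GRCm38), 5′ to 3′, with bases that differ from the aligned partner, or that have none, in capitals. Rpl39 and Rpl39l encode 51 amino acids each, and 133 of the 156 bases were identical (85.3%), with 38 bases as the longest identical run.
Rpl39: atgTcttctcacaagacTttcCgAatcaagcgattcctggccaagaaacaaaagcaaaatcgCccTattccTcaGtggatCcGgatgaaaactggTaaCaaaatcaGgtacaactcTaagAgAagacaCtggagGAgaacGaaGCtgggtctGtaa
Rpl39l: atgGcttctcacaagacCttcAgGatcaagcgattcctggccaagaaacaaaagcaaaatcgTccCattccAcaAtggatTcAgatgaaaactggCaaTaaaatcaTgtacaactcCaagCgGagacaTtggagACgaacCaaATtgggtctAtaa
Rps27 and Rps27l encode 84 amino acids each, and 194 of 255 bases were identical (76.1%). Their differences are spread so evenly that no identical run was longer than 11 bases.
Rps27: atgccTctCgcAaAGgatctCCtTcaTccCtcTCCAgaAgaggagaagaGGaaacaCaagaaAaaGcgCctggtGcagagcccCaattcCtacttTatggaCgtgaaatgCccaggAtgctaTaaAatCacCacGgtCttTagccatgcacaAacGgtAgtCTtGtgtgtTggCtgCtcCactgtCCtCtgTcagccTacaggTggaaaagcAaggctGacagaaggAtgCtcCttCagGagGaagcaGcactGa
Rps27l: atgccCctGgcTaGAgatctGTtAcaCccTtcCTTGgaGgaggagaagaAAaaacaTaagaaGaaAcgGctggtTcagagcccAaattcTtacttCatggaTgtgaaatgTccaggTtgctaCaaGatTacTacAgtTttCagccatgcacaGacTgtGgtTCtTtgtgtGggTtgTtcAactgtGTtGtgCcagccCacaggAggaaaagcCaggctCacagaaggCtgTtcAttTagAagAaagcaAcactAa
Rpl22 encodes 128 and Rpl22l1 122 amino acids, and 259 of the 369 aligned bases were identical (70.2%), with a longest identical run of 26 bases. For this pair and the longer ones, only the 180-base aligned stretch with most identical bases is shown. In this pair it spans coding bases 186 to 365 of Rpl22 and 168 to 347 of Rpl22l1, with 138 identical bases.
Rpl22: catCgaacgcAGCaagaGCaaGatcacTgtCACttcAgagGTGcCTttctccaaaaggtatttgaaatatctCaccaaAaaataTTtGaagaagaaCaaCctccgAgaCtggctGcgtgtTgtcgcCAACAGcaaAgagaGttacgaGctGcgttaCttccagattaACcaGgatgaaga
Rpl22l1: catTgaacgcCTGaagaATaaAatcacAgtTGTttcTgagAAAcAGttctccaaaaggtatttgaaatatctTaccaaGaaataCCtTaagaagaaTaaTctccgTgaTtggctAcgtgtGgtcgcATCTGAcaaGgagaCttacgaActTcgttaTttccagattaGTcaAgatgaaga

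Rpl3 (403 amino acids) and Rpl3l (407) shared 74.4% of aligned bases over the whole coding sequence, with a longest identical run of 22 bases. In the stretch shown, coding bases 684 to 863 of both genes, 144 of 180 bases were identical.
Rpl3: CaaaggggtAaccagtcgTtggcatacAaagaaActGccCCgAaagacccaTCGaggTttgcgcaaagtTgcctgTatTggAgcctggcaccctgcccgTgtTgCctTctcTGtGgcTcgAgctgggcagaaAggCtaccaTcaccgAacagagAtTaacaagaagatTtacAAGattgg
Rpl3l: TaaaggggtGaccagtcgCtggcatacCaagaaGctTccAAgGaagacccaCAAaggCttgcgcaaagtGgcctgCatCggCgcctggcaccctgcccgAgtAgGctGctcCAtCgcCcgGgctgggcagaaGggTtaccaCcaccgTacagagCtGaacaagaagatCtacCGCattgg
Rpl7 (270 amino acids) and Rpl7l1 (246) were the most diverged of the pairs, at 59.9% of aligned bases. Their closest stretch, bases 459 to 638 of Rpl7 and 387 to 566 of Rpl7l1, had 116 identical bases of 180, and the longest identical run of the whole transcripts was 11 bases.
Rpl7: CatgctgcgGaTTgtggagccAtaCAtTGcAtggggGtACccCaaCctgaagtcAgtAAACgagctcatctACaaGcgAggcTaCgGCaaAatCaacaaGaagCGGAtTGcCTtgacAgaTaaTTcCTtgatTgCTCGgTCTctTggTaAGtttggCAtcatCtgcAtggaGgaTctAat
Rpl7l1: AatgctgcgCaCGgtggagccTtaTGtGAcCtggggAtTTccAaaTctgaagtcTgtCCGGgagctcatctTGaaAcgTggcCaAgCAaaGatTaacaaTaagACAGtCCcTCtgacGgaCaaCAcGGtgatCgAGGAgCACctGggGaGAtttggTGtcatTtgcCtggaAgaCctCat

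No pair shared a run of 50 bases, so a read of that length could not lie on both members without a mismatch. Processed pseudogenes and retrogenes are closer relatives than the paralogs. Of all 50-base words in its transcript, Rps27 shared 98.7% with transcripts of other genes, nearly all of them with the retrogene Rps27rt. Rpl3 shared 85.6%, Rpl22l1 65.6%, Rpl7 53.3%, Rps27l 22.4%, Rpl39 16.5%, Rpl7l1 9.19% and Rpl22 5.19%. Rpl3l and Rpl39l shared 0 words with any other annotated transcript. The labels give no read length. With 100-base words the shares were 98.4% for Rps27, 79.4% for Rpl3, 50.8% for Rpl22l1, 28.2% for Rpl7 and at most 1.75% for the others. Reads with more than 1 alignment, which the counting left out of the genes, took 13.4 to 14.7% of the table in cluster KO and 16.1 to 16.8% in wildtype libraries, and reads that share words were not traced. The levels of Rps27, Rpl3, Rpl22l1 and Rpl7 are therefore uncertain. The plot of shared words sets the members side by side.

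**Figure D1:**
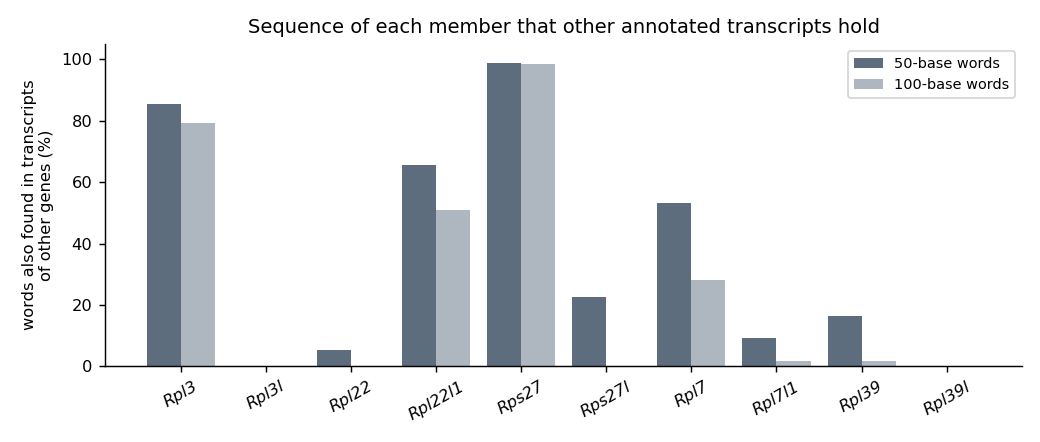
Percent of the 50-base (dark) and 100-base (light) words of each member's principal transcript that also occur, on either strand, in annotated transcripts of other genes. Rps27 stands at 98.7% for 50-base words, and Rpl3l and Rpl39l at 0.

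The cluster's small RNAs could not check the labels: 13 snoRNA genes annotated inside their host transcript Rian had 0 counts in every library, and Rian itself had 9, 6 and 3 counts in cluster KO and 11, 5 and 38 in wildtype libraries. The libraries held 17663369 to 23459168 gene counts, and replicates differed beyond counting error in each genotype (chi-square per degree of freedom 12.2 to 71.4). Of 15686 genes tested, 27.9% were called at an adjusted p under 0.05 by edgeR's quasi-likelihood test, 15.9% higher in the cluster KO group and 12.1% lower, and the groups did not overlap for 46.0%. All 8 general blood cell genes on a fixed list, among them Ptprc and Spi1, were expressed in marrow of both genotypes, and 4 rose and 1 fell. RNA of lineage markers differed. Of 14 B lineage genes 10 rose and 0 fell (summed level 2097 to 2195 CPM in cluster KO, 660 to 694 in wildtype). Of 8 megakaryocyte genes 4 fell and 1 rose, and of 12 erythroid genes 5 fell and 0 rose. Of 13 neutrophil genes 4 rose and 0 fell. Of 12 tested T and NK cell genes 3 rose and 1 fell, and of 7 tested stromal and endothelial genes 2 rose and 0 fell. The part of cell makeup in the results below was not tested, and in bulk RNA fewer cells of a type and less RNA per cell cannot be told apart.

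All 5 parents were lower in cluster KO marrow, while the paralogs went different ways. Rpl22l1 and Rps27l fell with their parents, Rpl7l1 and Rpl3l rose, and Rpl39l was near the limit of detection and did not pass. So 9 of the 10 genes were called, against 27.9% of all tested genes: 7 were called lower, against 12.1% of all tested genes, and 2 were called higher, against 15.9%. The groups did not overlap for 9 of the 10, against 46.0% of all tested genes. Levels are given as normalised read counts (CPM, counts scaled to library size with TMM factors), which compare a gene between libraries but not genes of unequal length with each other.

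**Figure D2:**
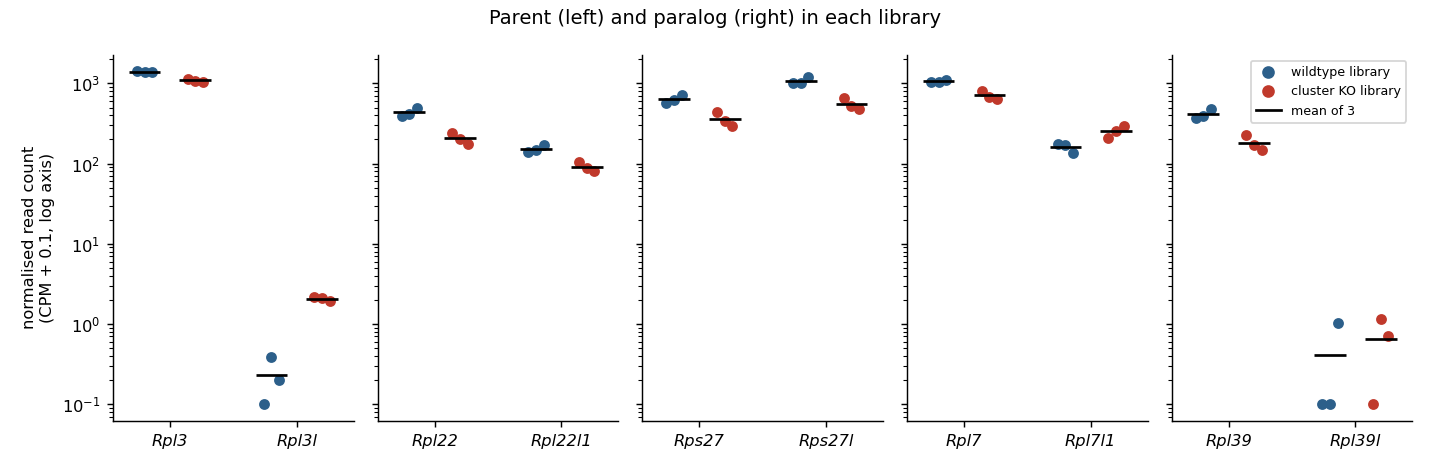
Normalised read count (CPM + 0.1, log axis) of each parent and paralog in 3 wildtype (blue) and 3 cluster KO (red) libraries, with the group mean as a line. All parents sit lower in cluster KO, Rpl7l1 and Rpl3l sit higher, and Rpl39l is at 0 in 3 of the 6 libraries.

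Among the parents of the large subunit, Rpl39, the smallest of these proteins, which lines the tunnel through which new peptides leave, fell most. Rpl39 (ENSMUSG00000079641, chromosome X, 37082520 to 37085402, mm10) was at 228, 169.7 and 146 CPM in cluster KO marrow and 373, 393 and 477 CPM in the wildtype libraries. The lowest wildtype library was well above the highest cluster KO library. The log2 fold change was -1.19 (SE 0.17, adjusted p = 0.00248, edgeR quasi-likelihood test). Rpl39 is the X-linked parent, and Xist was lower and Ddx3y higher in the same libraries. Of 497 tested genes on the X chromosome, 14.9% were called higher and 11.7% lower, with a median log2 fold change of 0.01.

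Rpl22, an RNA-binding protein of the large subunit (ENSMUSG00000028936, chromosome 4, 152325742 to 152334071), was at 244, 205 and 175 CPM in cluster KO marrow and 395, 421 and 498 CPM in the wildtype libraries. The groups were again fully apart. Its log2 fold change was -1.08 (SE 0.14, edgeR adjusted p = 0.00217).

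Rpl7 (ENSMUSG00000043716, chromosome 1, 16101295 to 16104662) was at 802, 684 and 633 CPM in cluster KO marrow and 1053, 1047 and 1087 CPM in the wildtype libraries. The wildtype libraries lay close together (1063 ± 21.5 CPM, SD, n = 3) and the cluster KO libraries spread further (707 ± 86.7 CPM). The log2 fold change of Rpl7 was -0.59 (SE 0.11, edgeR adjusted p = 0.00463).

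Rpl3, a protein close to the peptidyl transferase centre (ENSMUSG00000060036, chromosome 15, 80077791 to 80091868, overlapping the small RNA gene Gm22077 by 93 bases), changed least of the parents. It was at 1144, 1075.5 and 1041 CPM in cluster KO marrow and 1416, 1374 and 1377 CPM in the wildtype libraries. The groups did not overlap, and the log2 fold change was -0.35 (SE 0.08, edgeR adjusted p = 0.0135). The call was lost without cluster KO 2 (adjusted p = 0.0798) and without wildtype 2 (0.0662), at log2 fold changes of -0.34 and -0.36.

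The small subunit parent Rps27 carries a zinc finger (ENSMUSG00000090733, chromosome 3, 90212522 to 90213651). It was at 438, 344 and 291 CPM in cluster KO marrow and 574, 625 and 712 CPM in the wildtype libraries, with no overlap. Rps27 fell by 0.83 on the log2 scale (SE 0.15, edgeR adjusted p = 0.00486). Rps27rt, the retrogene that holds nearly all of its words, had 133, 122 and 69 counts against 239, 155 and 252, with a log2 fold change of -1.17 (SE 0.29, edgeR adjusted p = 0.0156). Reads of the 2 genes may be exchanged, so these falls are not independent. Without cluster KO 1 to 3 or wildtype 1 to 3 in turn, the fall of Rps27rt passed in 4 of 6 fits.

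Of the 74 other cytosolic ribosomal protein genes, 72 fell and 0 rose, with a median log2 fold change of -0.86 beside 0.00 over all tested genes. The exceptions were Rplp0 (-0.19, SE 0.09) and Rpl4 (-0.06, SE 0.09), and the largest falls were in Rps12 (-1.43, SE 0.18) and Rps21 (-1.32, SE 0.18). The 5 parents spread over this range. From the largest fall upward, Rpl39 was at rank 4 of the 79 ribosomal protein genes, Rpl22 at 12, Rps27 at 46, Rpl7 at 65 and Rpl3 at 77. The ribosomal protein genes whose centred log2 levels over the 6 libraries lay nearest to each parent, by Euclidean distance, were Rpl38 (0.03) and Rplp2 (0.07) for Rpl39, Rps6 (0.04) for Rpl7, and Rpl36a (0.06) and Rpl41 (0.07) for Rpl22. They were Rps18 (0.08) and Rpl34 (0.08) for Rps27, and Rpl14 (0.08) and Rpl29 (0.10) for Rpl3. The median distance of a parent to 78 others ran from 0.27 to 0.70.

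**Figure D3:**
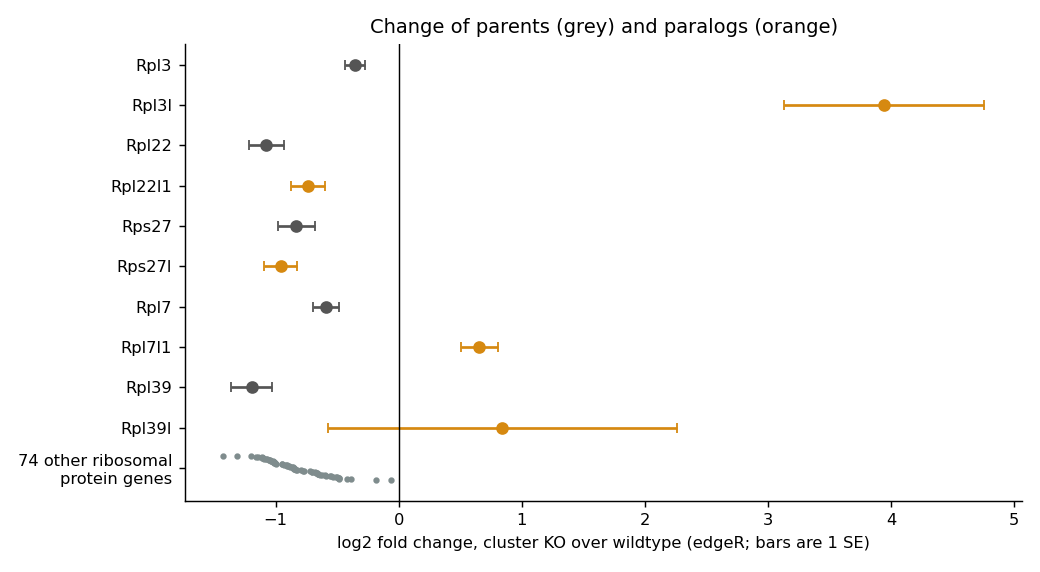
Log2 fold change of cluster KO over wildtype with 1 SE for each parent (grey) and paralog (orange), above the values of the 74 other cytosolic ribosomal protein genes (small points). The parents lie between -1.19 and -0.35, within the range of the other genes (-1.43 to -0.06), while Rpl7l1 and Rpl3l lie to the right of 0.

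Rps27l was the most abundant paralog and fell with its parent. Rps27l (ENSMUSG00000036781, chromosome 9, 66946086 to 66949516) was at 663, 523 and 482 CPM in cluster KO marrow and 1011, 1025 and 1201 CPM in the wildtype libraries. Every cluster KO library was below every wildtype library. Rps27l fell by 0.96 on the log2 scale (SE 0.13, edgeR adjusted p = 0.00237). The ribosomal protein gene nearest to it was Rpl31 (distance 0.07, median 0.23 over 79 genes).

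Relative to Rps27, Rps27l did not pass. It took 60.2, 60.3 and 62.4% of the pair's counts in cluster KO marrow and 63.8, 62.1 and 62.8% in the wildtype libraries. These shares overlapped between the groups. The log2 ratio of Rps27l to Rps27 differed by -0.12 (exact permutation test, two-sided p = 0.2). In an edgeR fit with the parent's counts as offset, the change relative to Rps27 was -0.12 (SE 0.09, adjusted p = 0.348). That the paralog took most of the counts rests on a parent of which 98.7% of 50-base words occur elsewhere, and the part of lost parent reads in the share was not tested. Per kilobase of principal transcript, wildtype levels were 2162 ± 212 CPM for Rps27l and 1846 ± 201 CPM for Rps27 (SD, n = 3). These SDs are between libraries and do not compare genes measured in the same libraries. Within wildtype libraries 1 to 3, the log2 ratio of Rps27l to Rps27 counts, not scaled to length, was 0.82, 0.71 and 0.76. The difference per kilobase was not tested.

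Since Rps27l is a p53 target, the other genes of a fixed p53 target list are set beside it. Of 23, 5 rose (21.7%) and 2 fell (8.7%), beside 15.9% and 12.1% of all tested genes, with a median log2 fold change of 0.40 beside 0.00 over all tested genes. The cell cycle inhibitor gene Cdkn1a rose, at 32.4, 24.9 and 26.8 CPM in cluster KO marrow and 12.2, 11.04 and 15.6 CPM in the wildtype libraries (log2 fold change 1.11, SE 0.20, edgeR adjusted p = 0.00433). Psrc1 rose by 1.16 (SE 0.30) and Ei24 fell by 1.07 (SE 0.19) on the log2 scale. Rps27l thus moved opposite to Cdkn1a in these libraries.

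Rpl22l1 also fell, but by less than Rpl22. Rpl22l1 (ENSMUSG00000039221, chromosome 3, 28805436 to 28807424) was at 105.1, 88.1 and 80.2 CPM in cluster KO marrow and 138, 148 and 168 CPM in the wildtype libraries, with no overlap. Rpl22l1 fell by 0.73 on the log2 scale (SE 0.14, edgeR adjusted p = 0.00534). With trends on transcript length and GC content removed it was -0.26, which did not pass (edgeR adjusted p = 0.194). Its nearest ribosomal protein genes were Rpl9 and Fau (distances 0.06 and 0.07, median 0.32 over 79 genes).

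The share of Rpl22l1 in the pair's counts was 30.1, 30.1 and 31.5% in cluster KO marrow and 26.0, 26.0 and 25.2% in the wildtype libraries. The groups were apart by more than the 95% Wilson intervals, from 29.0 to 32.7% and from 24.5 to 26.9%. The log2 ratio to Rpl22 had means of -1.18 ± 0.05 for cluster KO and -1.53 ± 0.03 for wildtype (SD, n = 3), a difference of 0.35 (two-sided p = 0.1 in an exact permutation test, which cannot go lower with 3 against 3 libraries). In the edgeR fit with the parent as offset the difference was 0.35 (SE 0.11, adjusted p = 0.0367). It passed in that fit without cluster KO 1 (0.0281) but not without cluster KO 2 (0.113), cluster KO 3 (0.0659), wildtype 1 (0.0908), wildtype 2 (0.117) or wildtype 3 (0.113), at sizes between 0.31 and 0.36. With length and GC trends removed, the difference of the ratio was 0.99 (exact permutation p = 0.1, two-sided), so its size depends on that setting. With the genes that share the most 50-base words added to either side, at most 3 per member, the difference was 0.35 as well. That alternative was chosen after seeing the data. Gm15421, a pseudogene that holds 56.5% of the words of Rpl22l1, had at most 8 counts in a library, and the antisense gene Gm33051, which overlaps 159 bases of its exons, had 18 to 45 counts in cluster KO marrow and 22 to 48 in the wildtype libraries.

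Rpl7l1 rose while Rpl7 fell, the only pair with both members well expressed that moved in opposite directions. Rpl7l1 (ENSMUSG00000063888, chromosome 17, 46773907 to 46782672) was at 209, 257 and 293 CPM in cluster KO marrow and 175, 172 and 136 CPM in the wildtype libraries. Every cluster KO library was above every wildtype library, though cluster KO 1 lay nearer to the wildtype libraries than to cluster KO 3. The log2 fold change was 0.65 (SE 0.15, edgeR adjusted p = 0.0116). The call was lost narrowly without cluster KO 2 (0.65, adjusted p = 0.0512), without wildtype 3 (0.55, adjusted p = 0.0527) and with length and GC trends removed (0.46, adjusted p = 0.0534).

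Relative to its parent the rise of Rpl7l1 was larger. Its share of the pair's counts was 20.7, 27.3 and 31.6% in cluster KO marrow and 14.2, 14.1 and 11.1% in the wildtype libraries. The widest Wilson interval of these shares ran from 31.0 to 32.3%, so the spread between libraries was far above counting error. The log2 ratio to Rpl7 had means of -1.49 ± 0.42 for cluster KO and -2.73 ± 0.23 for wildtype (SD, n = 3), a difference of 1.24 (exact permutation p = 0.1, two-sided). The edgeR fit with the parent as offset gave 1.27 (SE 0.20, adjusted p = 0.00311), and it passed without each of the 6 libraries in turn, with values from 1.07 to 1.47. The genes that share the most 50-base words, at most 3 per member, were also added to either side. The difference of the log2 ratio was then 0.85 (exact permutation p = 0.1, two-sided). In all, 520 genes shared such words with Rpl7l1 and 13 with Rpl7, so most were not added. The nearest ribosomal protein genes to Rpl7l1 were Rpl4 and Rplp0, at distances of 0.92 and 1.10. They were also the nearest to Rpl3l (2.58 and 2.72) and Rpl39l (1.90 and 1.97). The median distances over 79 genes were 2.02 for Rpl7l1, 3.54 for Rpl3l and 2.41 for Rpl39l. As Rpl4 and Rplp0 were the ribosomal protein genes not called lower, they would be nearest to most genes that rose. The tested genes on either side of Rpl7l1, chosen after seeing the values, did not rise. 2310039H08Rik, 511 bases away, changed by -0.78 (SE 0.14, edgeR adjusted p = 0.00483) and Bicral by -0.36 (SE 0.18, adjusted p = 0.154) on the log2 scale.

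Rpl3l went from a trace to a low but steady level. Rpl3l (ENSMUSG00000002500, chromosome 17, 24727820 to 24736143) was counted 45, 48 and 39 times in cluster KO marrow but 0, 5 and 2 times in wildtype marrow, 132 against 7 in all. In normalised counts these were 2.06, 2.02 and 1.81 CPM against 0, 0.283 and 0.102 CPM, where a count of 0 allows up to 0.136 CPM in wildtype 1. The cluster KO libraries agree closely with each other and lie far above all 3 wildtype libraries. The log2 fold change was 3.94 (SE 0.81, edgeR adjusted p = 0.0076). It passed in each of the other 15 fits tried, with log2 fold changes from 3.33 without wildtype 1 to 5.18 without wildtype 2, so the size is poorly fixed.

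Against Rpl3 the paralog remained a very small part of the pair. Its share of the counts was 0.179, 0.187 and 0.174% in the cluster KO libraries, with Wilson intervals from 0.127 to 0.248%, and 0, 0.0206 and 0.00744% in the wildtype libraries. The log2 ratio differed by 4.71 (exact permutation p = 0.1, two-sided), and the edgeR fit with the parent as offset gave 4.28 (SE 0.82, adjusted p = 0.00568). Rpl3l shares 0 of its 50-base words with another annotated transcript and at most 22 bases in a row with Rpl3. The tested genes on either side of Rpl3l, also chosen after seeing the values, did not pass as higher: Msrb1, 499 bases away, had a log2 fold change of 0.30 (SE 0.20, edgeR adjusted p = 0.293) and Ndufb10 one of -0.59 (SE 0.11, adjusted p = 0.00557).

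Markers of striated muscle, where Rpl3l is best known, are set beside it. Of the 20 genes listed, 6 were tested and 0 passed, with a summed level of 35.9 to 41.6 CPM in cluster KO marrow and 40.7 to 43.0 CPM in the wildtype libraries. Actc1, Mb, Myh1, Myh2, Myh6, Myl1, Myod1 and Tnnc2 had 0 counts in all libraries. Mylpf, a fast muscle light chain gene, took most of the sum, with a log2 fold change of -0.15 (SE 0.15), and Tnni3 (-0.97, SE 0.44) and Tnni2 (0.38, SE 0.34) did not pass. Of the smooth muscle genes 2 were tested and 1 rose, Acta2 (smooth muscle actin, chosen after seeing its values), at 3.52, 2.86 and 2.28 CPM against 0.905, 0.0566 and 0.102 CPM (edgeR adjusted p = 0.0197), while Tagln, at 0.731, 0.757 and 0.511 CPM against 0.814, 2.15 and 1.02 CPM, did not pass. The smooth muscle list summed to 2.93 to 5.35 CPM against 1.13 to 2.38 CPM, and its part in the rise of Rpl3l was not tested.

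Rpl39l was seen in only some libraries of each genotype. Rpl39l (ENSMUSG00000039209, chromosome 16, 10170226 to 10174911) was counted 0, 25 and 13 times in cluster KO marrow and 0, 0 and 18 times in wildtype marrow. Each genotype held libraries with and without reads, and the groups overlapped. The log2 fold change was 0.84 (SE 1.42, edgeR adjusted p = 0.687), and it moved between -0.02 without cluster KO 2 and 6.58 without wildtype 3. Its share of the pair with Rpl39 was 0.616% in cluster KO 2 and 0.193% in wildtype 3, and where it had 0 counts it could be up to 0.0601% in cluster KO 1. The difference of the log2 ratio to Rpl39, 2.76, rests on the libraries at 0 (exact permutation p = 0.2, two-sided), and the fit with the parent as offset did not pass (adjusted p = 0.26).

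Male germ cell genes are set beside Rpl39l. Of 16 listed genes 4 were tested and 1 rose, Ddx4 (log2 fold change 0.79, SE 0.24, edgeR adjusted p = 0.0358), while Acrv1 (-0.97, SE 0.43) and Dazl (0.76, SE 0.66) did not pass. Akap4, Prm2, Sycp1, Tex101 and Tnp1 had 0 counts in all libraries, and the list summed to 11.1 to 15.8 CPM in cluster KO marrow and 8.64 to 11.4 CPM in the wildtype libraries.

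**Figure D4:**
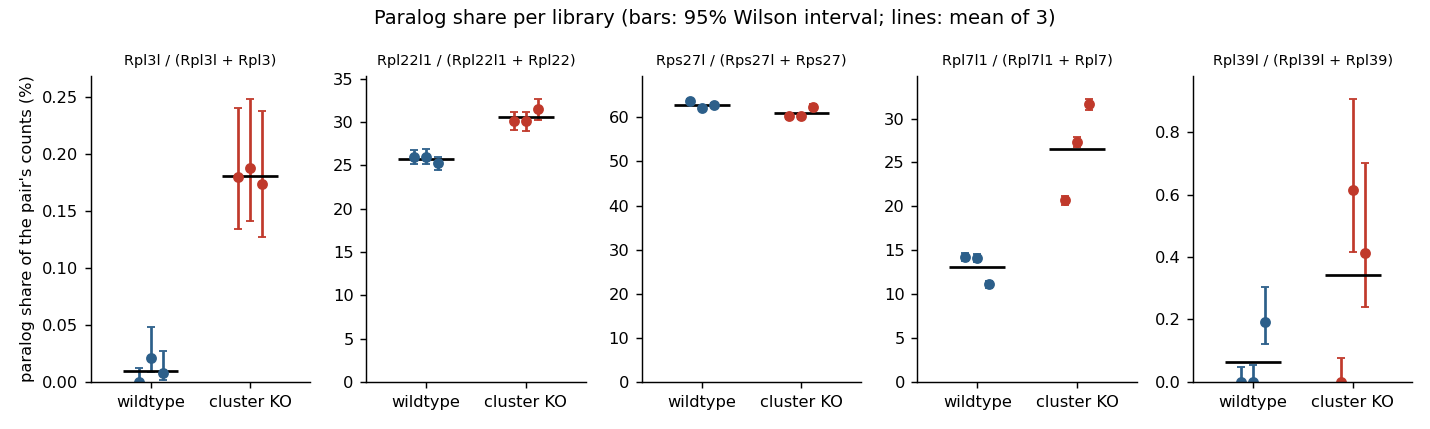
Paralog share of the counts of each pair (%), per library, with its 95% Wilson interval and the group mean as a line. The share of Rpl7l1 rises from 13.1% to 26.5% on average, that of Rpl22l1 from 25.7% to 30.6%, and that of Rps27l overlaps between the groups at 62.9% and 61.0%.

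Of the other paralogs on a fixed list, Rpl36al, nearly identical to Rpl36a, fell with the core genes, at 376, 305 and 263 CPM in cluster KO marrow and 565, 577 and 678 CPM in the wildtype libraries (log2 fold change -0.95, SE 0.14, edgeR adjusted p = 0.00275). Rps4l, annotated as a transcribed pseudogene, was at 15.9, 17.3 and 15.8 CPM against 12.8, 9.12 and 13.4 CPM and did not pass (0.47, SE 0.20, edgeR adjusted p = 0.113). Rpl10l, known from male germ cells, had 0 counts in all 6 libraries.

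Per kilobase of principal transcript the order of the levels in wildtype marrow was Rps27l, Rps27, Rpl3 (1028 ± 17.5 CPM per kilobase, SD, n = 3), Rpl7 (914 ± 18.5), Rpl39 (677 ± 90.1), Rpl22l1 (274 ± 27.7), Rpl22 (214 ± 26.3), Rpl7l1 (61.7 ± 8.25), Rpl39l (0.382 ± 0.661) and Rpl3l (0.0935 ± 0.104). The place of Rpl22 depends on its transcript: with its shortest complete one (474 bases in place of 2051) it was at 924 ± 114 CPM per kilobase, beside Rpl7. In cluster KO the levels were 1114 ± 191 for Rps27l and 1037 ± 216 for Rps27, and 165 ± 23.0 for Rpl22l1 and 101 ± 16.9 for Rpl22, in CPM per kilobase. With the shortest complete transcript of each gene, the cluster KO order was reversed, at 174 ± 24.2 for Rpl22l1 and 438 ± 73.1 for Rpl22. Neither Rpl39l and Rpl3l nor Rps27l and Rps27 were tested against each other per kilobase. The wildtype level of Rpl39l rests on wildtype 3 alone.

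The cluster KO libraries did not lie equally far from wildtype. For 8 of the 10 genes cluster KO 1 was the cluster KO library nearest to the wildtype mean, in both directions of change. The exceptions were Rpl3l and Rpl39l. The share of reads outside genes was 10.05, 8.59 and 7.29% in cluster KO marrow and 10.03, 10.5 and 11.1% in the wildtype libraries, so that it also set cluster KO 1 nearest to wildtype. The part of this share in the results was not tested. Without cluster KO 1 the calls of all 9 genes held, with values such as -1.40 for Rpl39, -1.11 for Rps27l and 0.76 for Rpl7l1 on the log2 scale. The plot of fold changes under every setting shows the range for each gene.

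**Figure D5:**
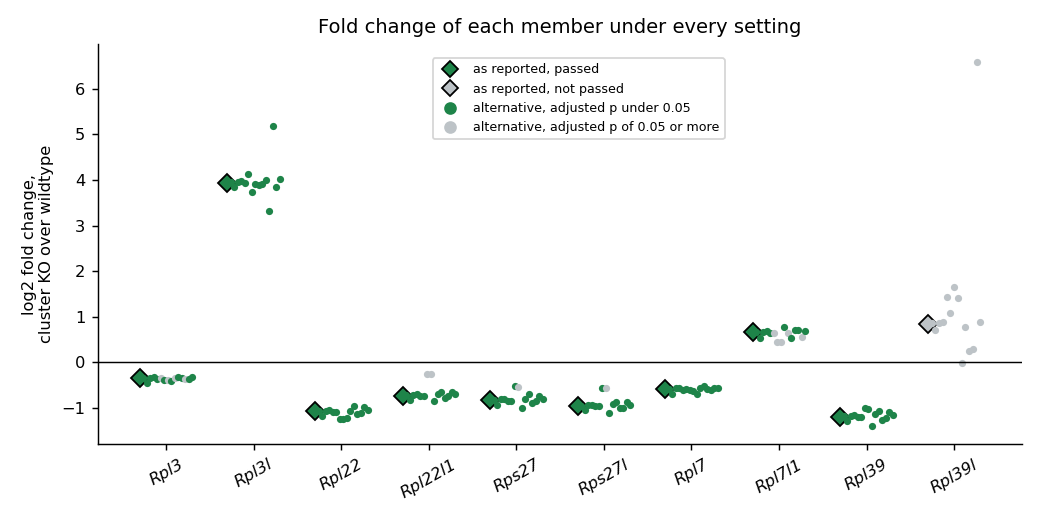
Log2 fold change of each gene as reported (diamond) and under each alternative (circles), green where the adjusted p was under 0.05. Rpl22, Rpl7, Rpl39 and Rpl3l passed in every setting, Rpl7l1 in 11 of 16, and Rpl39l in 0.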

How the data were processed

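The deposited table holds raw read counts per Ensembl gene, 1 column per library, and 5 summary lines of HTSeq, kept out of library sizes and all tests (23.4 to 30.8% of a library's reads). Per the labels' protocols, poly(A) RNA was used with a non-stranded kit of the Nextera XT type. Per the submitters' processing notes, bcl2fastq, TopHat2, HTSeq and mm10 were used, without versions; neither the annotation release nor the counting mode is given in those sources. Symbols, positions and transcripts came from GENCODE M21 on GRCm38 (47310 genes matched by identifier).

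Groups came from the sample titles. Genotype was tested with edgeR 4.0.16 in R 4.3.3 (TMM, filterByExpr with a minimum count of 10, robust quasi-likelihood F-test, Benjamini-Hochberg at 0.05 over 15686 genes), after the same code was tested on simulated data. The SE was the size of the coefficient over the square root of F. Paralog to parent ratios added 0.5 to each count and used exact permutation tests over libraries for 5 pairs, each unadjusted, since 0.1 is the smallest p possible. A further edgeR fit, chosen after seeing the data, took the log of the parent's counts as the paralog's offset. Coding sequences were aligned globally with Biopython 1.88. Intervals and limits for 0 counts reflect counting error alone, as no molecular identifiers are described. The members and lists were chosen with earlier results of these data known. Named genes were the members, the listed further paralogs, the nearest 2 ribosomal protein genes to a member (some are not reported here), the 2 highest and 2 lowest other ribosomal protein genes, and the 3 genes of smallest p in the p53, striated muscle and germ cell lists. Sex-linked, smooth muscle, neighbouring and sequence-sharing genes named beside a result were chosen after seeing the data, as were the ratios with length and GC trends removed. Alternatives were other scalings, filters, DESeq2 1.42.0, a replicate block, removal of length and GC trends, and leaving out each library.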

Additional observations from a re-analysis of the deposited data

How the results depend on the processing

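The direction of the fold change held for 9 of the 10 genes under every alternative; that of Rpl39l turned to -0.021 without cluster KO 2, over a range of -0.021 to 6.58 with single libraries left out. The count of genes called higher fell from 2 to 1, with the loss of Rpl7l1, under the replicate block (edgeR adjusted p = 0.0549), with length and GC trends removed (0.0534), with both together (0.15), without cluster KO 2 and without wildtype 3, a range of 1 to 2 over the left-out libraries. The count called lower fell from 7 to 3 under the replicate block with length and GC trends removed, where Rpl22, Rpl7 and Rpl39 passed, at log2 fold changes that included -0.53 for Rps27 (adjusted p = 0.1) and -0.56 for Rps27l (0.0669), which did not. The block alone also lost Rpl3 (adjusted p = 0.0787). Libraries of the same number did not deviate together (correlations -0.17, 0.01 and -0.14 between the genotypes). Those of unlike numbers had correlations from -0.03 to 0.17. As deviations were centred within 3 libraries, this check cannot exclude that libraries of the same number share a preparation. For the ratios, whose mean differences (4.71, 0.35, -0.12, 1.24 and 2.76 for Rpl3l, Rpl22l1, Rps27l, Rpl7l1 and Rpl39l) a replicate block cannot move, the exact sign-flip test gave p = 0.25 for all 5 pairs, the smallest that 3 pairs allow.

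The relative fits with the parent as offset passed where the permutation test of 3 against 3 libraries cannot: 4.28 for Rpl3l, 1.27 for Rpl7l1 and 0.35 for Rpl22l1 (0.31 to 0.36 with single libraries left out, of which only the fit without cluster KO 1, at 0.36, passed). Without cluster KO 1, 2 and 3 and wildtype 1, 2 and 3 in turn, the relative fit gave 4.28, 4.24, 4.30, 3.66, 5.51 and 4.18 for Rpl3l and 1.47, 1.25, 1.07, 1.34, 1.33 and 1.15 for Rpl7l1, all of which passed. Upper quartile scaling moved the median log2 fold change of all tested genes from 0.00 to -0.10 and the share of calls that were higher from 56.8 to 46.6%; the directions of the 9 called genes did not change. Over all genes, 2487 were called higher and 1895 lower; these became 1331 and 865 with the block, 843 and 573 with the block and length and GC trends removed, 1258 and 742 without cluster KO 2, 1412 and 944 without wildtype 2, and 1303 and 860 without wildtype 3. Counts of Rpl3l and Rpl39l near 0 limit the size of any change in them.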
